A study of Mus musculus with 24 samples.

Results

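The 10 genes described here, which encode amino acid transporters, or the partner chain of one, were followed in hepatocytes of aged mice: Slc7a2, Slc7a5, Slc3a2, Slc38a2, Slc38a3, Slc38a4, Slc38a9, Slc43a1, Slc1a4 and Slc6a13. They were taken by gene name from tables that list 55421 genes, and all 10 were among the 13847 genes with enough counts to be tested. Hepatocytes, the main cell of the liver, were isolated by perfusion from male C57BL/6J mice that received vehicle (eudragit, the coating of the drug) or encapsulated rapamycin (eRapa, 42 ppm in the food) from 4 months of age. ND+veh (n = 8) ate a normal diet with vehicle throughout. HFD+veh (n = 7) and HFD+eRapa (n = 9) were moved at 18 months for 9 weeks to a diet that drew 60% of its calories from fat, with vehicle and with eRapa respectively. No group combined the normal diet with eRapa, so the comparison of HFD+eRapa with ND+veh changes diet and drug together.

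Amino acids cross the plasma membrane through carrier proteins, and the liver takes up large amounts of them from portal blood for protein synthesis, glucose production and urea formation. Some carriers exchange one amino acid for another, some bring amino acids in with sodium, and others let them pass down their gradient. Amino acids inside the cell and in the lysosome are read by proteins that recruit the kinase complex mTORC1 to the lysosomal surface, and rapamycin inhibits mTORC1. When amino acids are short, the transcription factor ATF4 is known to raise genes of amino acid synthesis and uptake.

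Each animal gave 1 library of polyadenylated RNA, and total gene counts per library ranged from 17739252 to 25945134 in ND+veh, 19847642 to 22032787 in HFD+veh and 17829987 to 23631003 in HFD+eRapa. Levels between animals are given as counts-per-million (CPM) scaled by TMM, a correction for library composition. A gene was called when its adjusted p from edgeR was under 0.05 over all genes tested. The hepatocyte markers were present in all groups, with 10 of 10 tested and summed medians of 133973, 125664 and 113937 CPM in ND+veh, HFD+veh and HFD+eRapa. The sums varied between animals, from 62020 to 166367 CPM in ND+veh, 102576 to 174320 in HFD+veh and 57103 to 158491 in HFD+eRapa. Markers of other cells were present too and moved with the groups. The summed level of 11 macrophage markers had a median of 262 CPM (45.6 to 1278) in ND+veh, 2538 CPM (177 to 4713) in HFD+veh and 199 CPM (14.6 to 1043) in HFD+eRapa. HFD+veh had 4 of 11 macrophage, 2 of 3 tested neutrophil, 1 of 10 endothelial, 3 of 11 stellate cell and 3 of 3 tested cholangiocyte markers higher than ND+veh. From HFD+veh to HFD+eRapa 9 of 11 macrophage, 9 of 10 endothelial, 11 of 11 stellate cell, 2 of 3 tested neutrophil and 1 of 3 tested cholangiocyte markers were lower, and the lymphocyte marker tested was not called. Against ND+veh, none of the macrophage, endothelial or neutrophil markers was called in HFD+eRapa, 6 of 11 stellate cell markers were lower and 1 cholangiocyte marker was higher. Of all genes tested, 16.0% were higher in HFD+veh than ND+veh and 21.1% were lower in HFD+eRapa than HFD+veh. Against ND+veh, 6.54% of all genes were lower and 6.93% higher in HFD+eRapa. The neutrophil marker Ly6g was at 0 in every ND+veh and HFD+eRapa library. In such bulk samples, fewer cells of a type and less RNA per cell cannot be told apart.

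The light and heavy chain of the leucine carrier LAT1, Slc7a5 and Slc3a2, were lower in HFD+eRapa than HFD+veh and than in ND+veh. Against ND+veh, no animal of one group overlapped the other for either gene, which held for no other member. HFD+veh hepatocytes had more Slc7a2, a carrier of arginine and lysine, and less Slc6a13, a carrier of GABA and taurine, than ND+veh. Slc38a9, a lysosomal arginine sensor, was lower and Slc1a4, a carrier of alanine and serine, was higher in HFD+eRapa than HFD+veh, the latter by a narrow margin. All 4 calls between HFD+eRapa and HFD+veh were lost when a score of immune or of other non-hepatocyte markers was in the fit. With either score the fitted difference became smaller for Slc7a5, Slc3a2 and Slc38a9 but larger for Slc1a4. The scores themselves differ between the groups. The calls of Slc7a2 and Slc6a13 between HFD+veh and ND+veh were lost when only these groups were fitted. The glutamine carriers Slc38a2 and Slc38a3 and the related carrier Slc38a4 were called in none of the 3 comparisons of the main fit (all groups, no score). Nor was the leucine carrier Slc43a1. With either score, however, Slc38a3 and Slc43a1 were called in both comparisons with HFD+veh. With the score of other non-hepatocyte markers Slc43a1 was also called in HFD+eRapa against ND+veh. Slc38a4 and Slc7a2 were called in that comparison when only its groups were fitted.

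Between HFD+veh and ND+veh, 2 of the 10 transporters were called, beside 25.9% of all genes tested, with 1 higher (16.0% of all genes were higher) and 1 lower (9.86%). Between HFD+eRapa and HFD+veh 4 of 10 were called, beside 32.0% of all genes, with 3 lower (21.1% of all genes were lower) and 1 higher (10.9%). Between HFD+eRapa and ND+veh 3 of 10 were called, all lower, beside 13.5% of all genes called, with 6.54% lower and 6.93% higher. With 10 genes, the counts in both comparisons with HFD+veh are near that background. The median log2 fold change of the 10 was 0.14, -0.21 and -0.09 in the 3 comparisons in that order, beside 0.05, -0.04 and -0.03 over all genes. The 2 genes without overlap in the last comparison stand beside 3.37% of all genes, and in the others, where the background was 2.44% and 2.59%, no transporter was free of overlap. The comparisons share groups, and their values are given side by side without a test of their likeness.

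**Figure D1:**
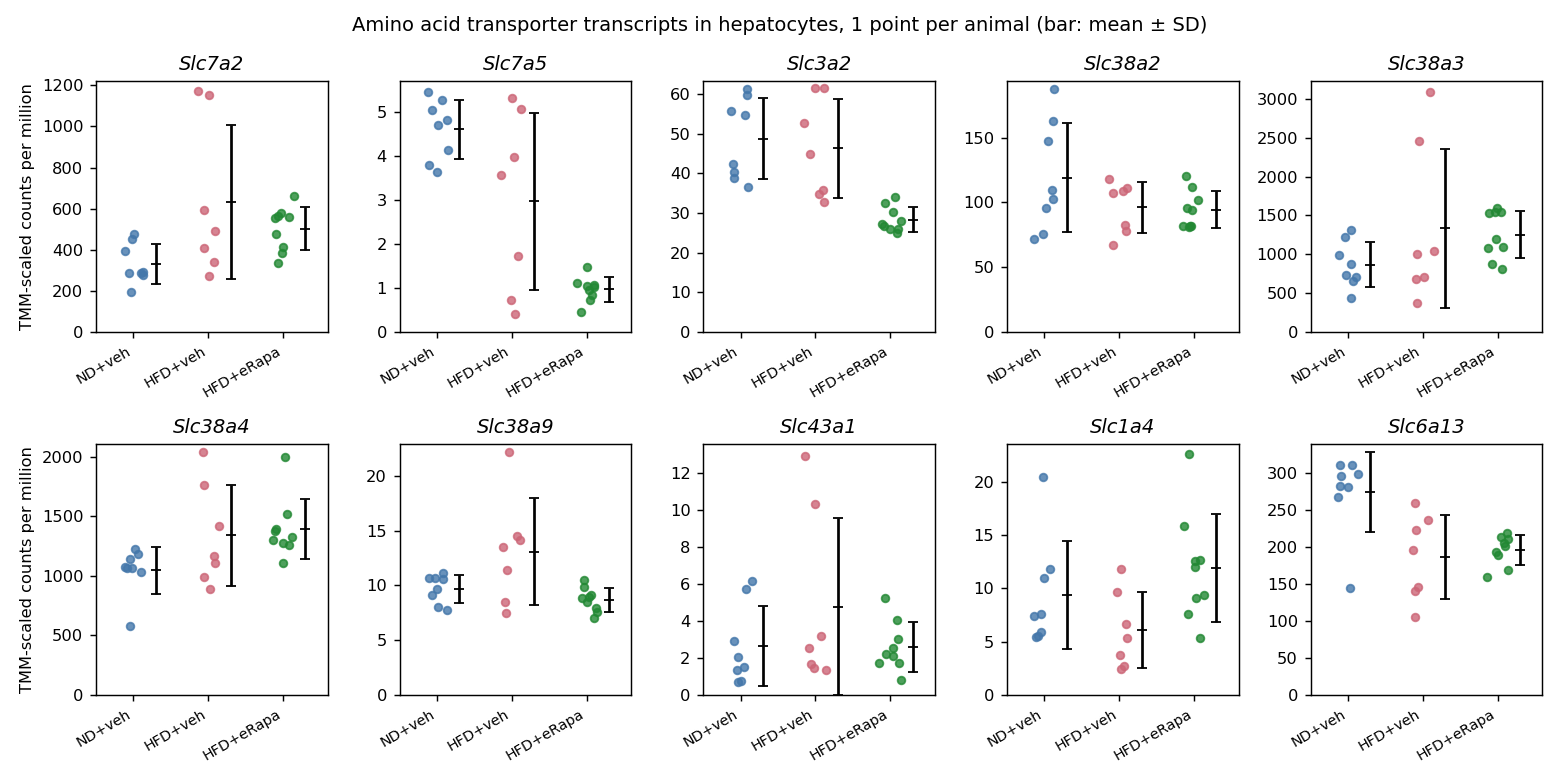
Level of each of the 10 transporters (TMM-scaled CPM, linear axis from 0) in ND+veh (n = 8), HFD+veh (n = 7) and HFD+eRapa (n = 9), with 1 point per animal and a bar for the mean ± SD. The HFD+eRapa animals lie below all ND+veh animals for Slc7a5 and Slc3a2, and 2 HFD+veh animals stand above all others for Slc7a2, Slc38a3 and Slc43a1.

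**Figure D2:**
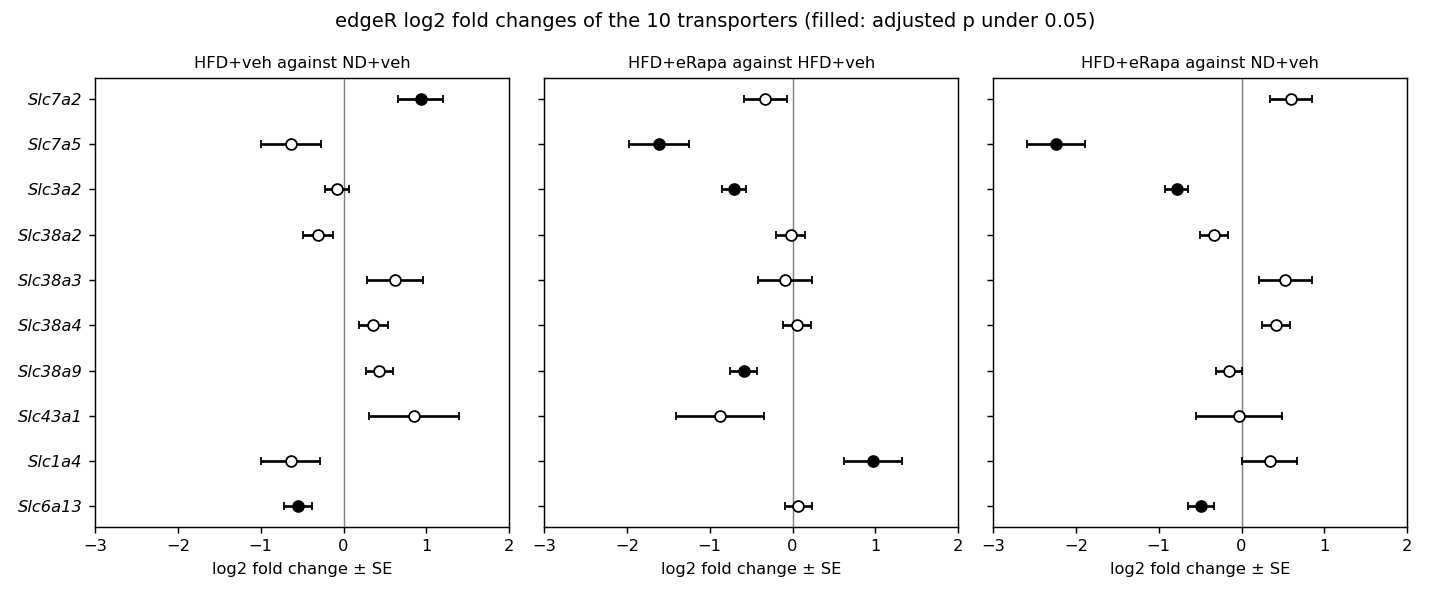
Log2 fold change (x axis) of each transporter from the edgeR fit, with its standard error as a bar, in the 3 comparisons (panels), where filled points have an adjusted p under 0.05. The left panel, HFD+veh against ND+veh, has 2 filled points, the middle panel, HFD+eRapa against HFD+veh, has 4, and the right panel, HFD+eRapa against ND+veh, has 3, all below 0.

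Compared per transcript length, the 10 genes cover a wide range. The authors' FPKM (fragments per kilobase of transcript, scaled to sequencing depth) averaged over the 24 animals was 463 for Slc38a4 and 439 for Slc38a3, which carry small neutral amino acids and glutamine and are typical of hepatocytes. Slc6a13 followed at 98.1 FPKM, then Slc7a2 at 56.9, Slc3a2 at 22.2 and Slc38a2 at 19.8. Slc1a4 at 2.26, Slc38a9 at 1.45 and Slc43a1 at 1.33 FPKM were the lowest. Neighbours in this order were not always apart. Slc38a4 exceeded Slc38a3 in 14 of 24 animals, and Slc3a2 exceeded Slc38a2 in 11 of 24, of which 1 was an HFD+eRapa animal. Slc6a13 exceeded Slc7a2 in 8 of 8 ND+veh and 8 of 9 HFD+eRapa but 4 of 7 HFD+veh animals. Slc38a3 was above Slc6a13, and Slc38a2 above Slc1a4, in 24 of 24 animals. Among the lowest, Slc1a4 exceeded Slc38a9 in 18 of 24 and Slc38a9 exceeded Slc43a1 in 16 of 24.

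**Figure D3:**
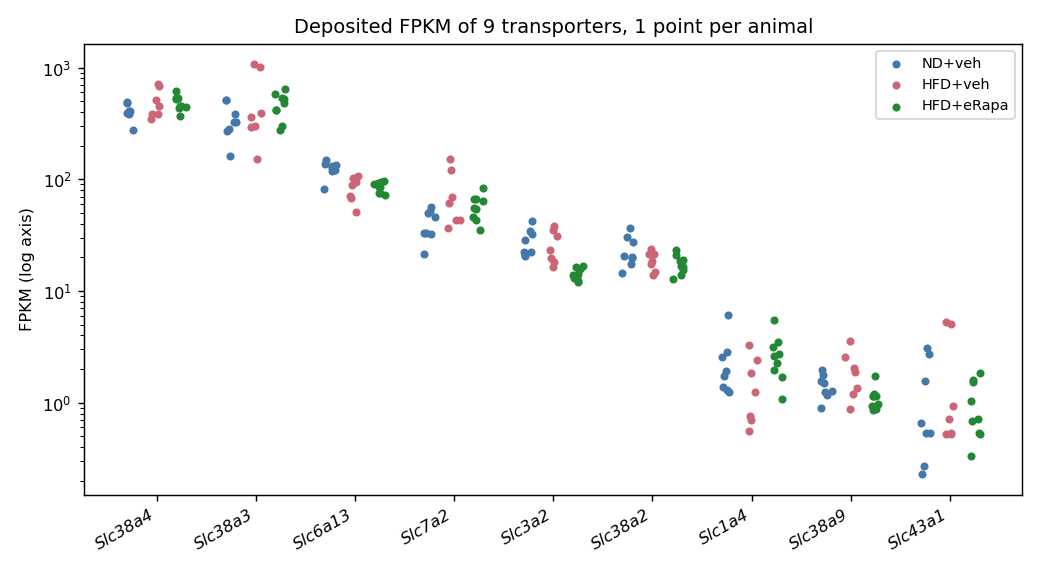
Deposited FPKM of 9 of the transporters (log axis) with 1 point per animal, coloured by group and ordered by the mean over 24 animals. Slc38a4 and Slc38a3 lie highest, and Slc1a4, Slc38a9 and Slc43a1 form the lowest tier. Slc7a5 is left out because its FPKM is listed at 0.

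Slc7a5 could not be placed in that order, because its FPKM is listed at 0 in all 24 libraries while its gene counts ran from 8 to 160. The gene lies within the span of an annotated locus on the other strand, Gm20388, which had 0 counts in every library. Of the genes inside that span with a mean of at least 10 counts, 56 of 56 are listed at 0 FPKM throughout, compared with 81 of 13575 such genes in all. With CPM divided by the kilobases of the merged exons, Slc7a5 averaged 1.24 CPM per kilobase in ND+veh, against 13.8 for Slc3a2 on the same scale. All Slc7a5 results below rest on the counts.

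Slc7a5 (ENSMUSG00000040010.10, GRCm38 chromosome 8, 121881150 to 121907694, minus strand) encodes the light chain of LAT1, which exchanges large neutral amino acids such as leucine. Its level was 3.65 CPM at the lowest, 4.76 at the median and 5.45 at the highest in ND+veh. In HFD+veh these values were 0.417, 3.56 and 5.31 CPM, and in HFD+eRapa 0.461, 1.01 and 1.48 CPM. All 9 HFD+eRapa animals were below all 8 ND+veh animals, whereas HFD+veh was spread over the ranges of both: replicates 1 and 7 (0.417 and 0.732 CPM) lay within or under the HFD+eRapa range, replicate 2 (1.72 CPM) lay just above it, and the other 4 ranged from 3.56 to 5.31 CPM. The fitted log2 fold change of HFD+eRapa was -2.24 ± 0.35 (SE) against ND+veh, a 4.73-fold lower level (edgeR adjusted p = 0.000121). Against HFD+veh it was -1.61 ± 0.36, or 3.05-fold lower (adjusted p = 0.0024). HFD+veh and ND+veh differed by -0.63 ± 0.36, which was not called (adjusted p = 0.198), although it was -1.20 and called with the score of non-immune markers described next (adjusted p = 0.0179). With a summary score of 15 immune marker genes as a covariate, the difference from ND+veh was -2.17 and stayed called, while that from HFD+veh was -0.94 and was no longer called (adjusted p = 0.196). With a score of 24 markers of other non-parenchymal cells it was -0.72 (adjusted p = 0.352). The counts behind these values were low, with 8 to 128 reads in the HFD+veh and 9 to 31 in the HFD+eRapa libraries.

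Slc3a2 (ENSMUSG00000010095.13, chromosome 19, 8706882 to 8723369, minus strand) encodes the heavy chain 4F2hc (CD98), which carries LAT1 and several other exchangers to the cell surface. Its lowest, median and highest levels were 36.4, 48.6 and 61.3 CPM in ND+veh. They were 32.7, 44.9 and 61.4 CPM in HFD+veh and 24.8, 27.2 and 33.9 CPM in HFD+eRapa. The drug group lay wholly below ND+veh and overlapped only the bottom of the HFD+veh range. Slc3a2 was 1.72-fold lower in HFD+eRapa than ND+veh (log2 fold change -0.78 ± 0.14, adjusted p = 0.000395) and 1.63-fold lower than in HFD+veh (-0.71 ± 0.14, adjusted p = 0.00116). HFD+veh against ND+veh gave -0.08 ± 0.15 (adjusted p = 0.732). With the immune score in the fit the differences of HFD+eRapa were -0.72 from ND+veh, still called, and -0.40 from HFD+veh, not called (adjusted p = 0.0976), and with the non-immune score the latter was -0.31 (adjusted p = 0.188).

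Because the 2 chains form 1 carrier, their levels were set against each other within groups on the log2 CPM scale. In ND+veh Pearson's r was 0.295 (exact permutation p = 0.457, two-sided) and Spearman's rho 0.238 (exact permutation p = 0.582), and r became -0.357 without the 2 animals farthest from the median of Slc7a5. In HFD+eRapa r was 0.0591 (permutation p = 0.882) and rho 0.45 (permutation p = 0.23), with r = 0.606 without the 2 farthest animals. In HFD+veh r was 0.818 (exact permutation p = 0.0373) and rho 0.714 (exact permutation p = 0.0881), with r = 0.890 without the 2 farthest animals. The 3 HFD+veh animals lowest in Slc7a5 (replicates 1, 2 and 7) were also the 3 lowest in Slc3a2. These 3 had the lowest immune marker scores of HFD+veh too, at -0.45, -0.43 and 0.69 beside a group median of 1.25. Their non-immune scores were likewise the lowest, at -0.67, -0.42 and 0.30 beside a group median of 0.88. Whether the relation of the 2 chains holds apart from these scores was not tested. Over the 3 groups examined, the adjusted p-values for r were 0.685, 0.112 and 0.882 in ND+veh, HFD+veh and HFD+eRapa, so the relation was strongest in HFD+veh and passed the threshold in none after adjustment. Whether r differed between groups was not tested.

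**Figure D4:**
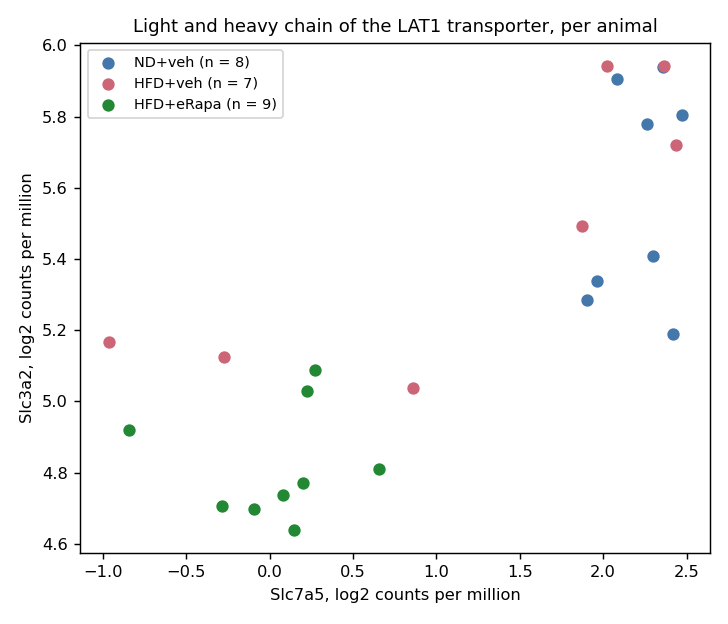
Slc3a2 against Slc7a5 (both log2 CPM), with 1 point per animal coloured by group. The 9 HFD+eRapa animals sit at the lower left, the 8 ND+veh animals at the right, and of the 7 HFD+veh animals the 3 lowest in Slc7a5 are also the 3 lowest in Slc3a2.

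Slc38a9 (ENSMUSG00000047789.5, chromosome 13, 112660751 to 112738749, plus strand) encodes a lysosomal membrane protein that senses arginine for mTORC1 and releases essential amino acids from the lysosome. Its lowest, median and highest levels were 7.77, 10.1 and 11.1 CPM in ND+veh and 7.03, 8.87 and 10.5 CPM in HFD+eRapa. In HFD+veh they were 7.42, 13.5 and 22.2 CPM. HFD+veh was the widest group: 5 of its 7 animals, from 11.4 to 22.2 CPM, were above every ND+veh and HFD+eRapa animal, and the other 2 lay among them. Slc38a9 was 1.5-fold lower in HFD+eRapa than HFD+veh (log2 fold change -0.59 ± 0.16, adjusted p = 0.00811), and the value was -0.49 with the immune score in the fit, no longer called (adjusted p = 0.134). HFD+veh against ND+veh missed the threshold at 0.43 ± 0.17 (adjusted p = 0.0563) and passed it when HFD+veh replicate 1, 5 or 7 was left out, with log2 fold changes from 0.46 to 0.53 and adjusted p from 0.0154 to 0.048. Without HFD+veh replicate 6, the highest animal at 22.2 CPM, it was 0.22 (adjusted p = 0.291), and HFD+eRapa against HFD+veh was -0.39, still called (adjusted p = 0.0414). HFD+eRapa against ND+veh was -0.16 ± 0.16 (adjusted p = 0.587).

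Slc1a4 (ENSMUSG00000020142.12, chromosome 11, 20302180 to 20332713, minus strand) encodes ASCT1, a sodium-dependent exchanger of alanine, serine and cysteine. Its lowest, median and highest levels were 5.44, 7.50 and 20.5 CPM in ND+veh and 2.46, 5.37 and 11.8 CPM in HFD+veh. In HFD+eRapa they were 5.37, 11.99 and 22.6 CPM. The 3 ranges overlapped widely, and the SD over animals was 5.09, 3.56 and 5.09 CPM in that order. The difference between HFD+eRapa and HFD+veh, 0.97 ± 0.35 on the log2 scale or 1.96-fold higher, was called (adjusted p = 0.0365). With the immune and the non-immune score in the fit the difference was 1.07 and 1.26 and no longer called (adjusted p = 0.119 and 0.0805). The call was also lost without a filter (adjusted p = 0.0529), with at least 10 counts required in every library (0.0504) and in both limma fits on FPKM (0.0988 and 0.0738), and on leaving out HFD+veh replicate 1, 3, 5, 6 or 7 or HFD+eRapa replicate 1, 4, 6, 7 or 8, with log2 fold changes from 0.80 to 1.02 and adjusted p from 0.0504 to 0.0799. Against ND+veh, HFD+veh stood at -0.64 ± 0.36 (adjusted p = 0.186) and HFD+eRapa at 0.34 ± 0.33 (adjusted p = 0.572).

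Slc1a4 is also a known ATF4 target, and the promoter windows of the members were searched for the core of the amino acid response element, the letters TGATGNAA on either strand, which a factor of the ATF4 family can bind. RefSeq promoter windows of GRCm38.p6 were found for 7 of the 10 genes, 11 windows in all. Slc7a5, Slc7a2 and Slc38a3 had no window and were not searched. Only a window of Slc1a4 held the letters, 1 of 11, compared with 1304 of 32851 windows of all genes (3.97%). It is shown with that of Slc38a9, in which the letters were not found, since these 2 genes differed between HFD+eRapa and HFD+veh in opposite directions. The windows of Slc3a2 and Slc38a2, also known ATF4 targets, lacked the letters too. A relation of the letters to the direction of a difference was not tested. The Slc1a4 window is chr11:20332710-20332963 on the minus strand and the Slc38a9 window chr13:112660516-112660765 on the plus strand of GRCm38.p6, both 5′ to 3′, and capitals mark the match, which is on the reverse strand of the window and begins 4 bases before the transcript start.
Slc1a4: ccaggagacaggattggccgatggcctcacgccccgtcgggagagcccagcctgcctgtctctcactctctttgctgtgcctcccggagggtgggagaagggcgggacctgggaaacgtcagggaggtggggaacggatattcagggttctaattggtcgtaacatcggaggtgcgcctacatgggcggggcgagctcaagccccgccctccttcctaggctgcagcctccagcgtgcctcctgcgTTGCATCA
Slc38a9: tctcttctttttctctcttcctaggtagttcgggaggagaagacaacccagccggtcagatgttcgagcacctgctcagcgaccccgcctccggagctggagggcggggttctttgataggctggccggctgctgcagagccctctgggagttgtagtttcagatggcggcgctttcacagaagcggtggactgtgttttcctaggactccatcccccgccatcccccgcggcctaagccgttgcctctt
The match is a description of these letters and says nothing of binding.

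Slc43a1 (ENSMUSG00000027075.16, chromosome 2, 84838850 to 84863594, plus strand) encodes LAT3, which lets leucine and similar amino acids pass without an exchange partner. It was scarce and variable, with 0.681, 1.79 and 6.14 CPM as the lowest, median and highest in ND+veh and 0.769, 2.21 and 5.23 CPM in HFD+eRapa. In HFD+veh the values were 1.34, 2.51 and 12.9 CPM. HFD+veh replicates 1 and 2, at 12.9 and 10.3 CPM, stood above all other animals, and the remaining 5 were at 3.19 CPM or less. No comparison was called, with log2 fold changes of 0.85 ± 0.54 (adjusted p = 0.251) between HFD+veh and ND+veh, -0.88 ± 0.53 (adjusted p = 0.21) between HFD+eRapa and HFD+veh and -0.03 ± 0.52 (adjusted p = 0.984) between HFD+eRapa and ND+veh. The same 2 animals had the lowest immune marker scores of HFD+veh, -0.45 and -0.43 beside a group median of 1.25. With that score as a covariate the comparisons involving HFD+veh were called, at 1.82 against ND+veh (adjusted p = 0.000715) and -1.96 for HFD+eRapa against it (adjusted p = 0.000417). With the non-immune score in the edgeR fit these were 1.30 and -2.15, both called. HFD+eRapa against ND+veh was then called too, at -0.85 (adjusted p = 0.0382).

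The SLC38 carriers of the plasma membrane bring small neutral amino acids and glutamine in with sodium. Slc38a3 (ENSMUSG00000010064.15, chromosome 9, 107650634 to 107669530, minus strand), the glutamine and histidine carrier SNAT3, had lowest, median and highest levels of 443, 804 and 1307 CPM in ND+veh. It had 366, 1000 and 3089 CPM in HFD+veh and 807, 1200 and 1597 CPM in HFD+eRapa. HFD+veh replicates 1 and 2 (3089 and 2454 CPM) again stood above every other animal. The log2 fold changes were 0.62 ± 0.34 for HFD+veh against ND+veh (adjusted p = 0.17) and 0.53 ± 0.32 for HFD+eRapa against ND+veh (adjusted p = 0.31). HFD+eRapa against HFD+veh gave -0.09 ± 0.33 (adjusted p = 0.853), a value whose sign turned to 0.27 and 0.13 when HFD+veh replicate 1 or 2 was left out. With the immune score as a covariate, HFD+veh differed from ND+veh by 1.13 (adjusted p = 0.000521) and HFD+eRapa from HFD+veh by -0.73 (adjusted p = 0.0249).

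Slc38a4 (ENSMUSG00000022464.14, chromosome 15, 96994820 to 97055956, minus strand), the carrier SNAT4, varied less between animals, with SDs of log2 CPM of 0.35, 0.44 and 0.24 in ND+veh, HFD+veh and HFD+eRapa beside 0.51, 1.07 and 0.37 for Slc38a3. Its lowest, median and highest levels were 575, 1068 and 1225 CPM in ND+veh, 890, 1170 and 2037 CPM in HFD+veh and 1107, 1325 and 1994 CPM in HFD+eRapa. ND+veh replicate 4 was far below the other ND+veh animals, which began at 1031 CPM, and HFD+veh replicates 1 and 2 were again the highest of their group. The log2 fold change was 0.42 ± 0.16 for HFD+eRapa against ND+veh (adjusted p = 0.0978) and 0.36 ± 0.17 for HFD+veh against ND+veh (adjusted p = 0.127), neither called. When only HFD+eRapa and ND+veh were fitted in edgeR, their difference was 0.42 and called (adjusted p = 0.0419). HFD+eRapa against HFD+veh was 0.06 ± 0.17 (adjusted p = 0.818). Without ND+veh replicate 4 the differences of HFD+eRapa and HFD+veh from ND+veh were 0.32 and 0.24.

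Slc38a2 (ENSMUSG00000022462.7, chromosome 15, 96687392 to 96699730, minus strand) encodes SNAT2, whose expression is known to rise when amino acids are short. It had lowest, median and highest levels of 71.9, 106 and 188 CPM in ND+veh, 67.1, 107 and 118 CPM in HFD+veh and 81.0, 94.4 and 120 CPM in HFD+eRapa. The 3 groups shared most of their range, and the 3 highest animals of all were in ND+veh. The log2 fold changes were -0.31 ± 0.18 (adjusted p = 0.206) for HFD+veh and -0.34 ± 0.17 (adjusted p = 0.216) for HFD+eRapa against ND+veh, and -0.02 ± 0.18 (adjusted p = 0.932) between the high-fat groups.

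Slc7a2 (ENSMUSG00000031596.15, chromosome 8, 40862396 to 40922308, plus strand) encodes CAT2, which carries arginine, lysine and ornithine and is the main cationic carrier of the liver. Its lowest, median and highest levels were 192, 290 and 476 CPM in ND+veh and 274, 489 and 1172 CPM in HFD+veh. In HFD+eRapa they were 338, 554 and 662 CPM. HFD+veh replicates 1 and 2 (1152 and 1172 CPM) stood above all other animals, and the rest of HFD+veh, up to 592 CPM, overlapped the range of HFD+eRapa. Slc7a2 was 1.90-fold higher in HFD+veh than ND+veh (log2 fold change 0.93 ± 0.27, adjusted p = 0.0163), a call that was lost when only these 2 groups were fitted (adjusted p = 0.0547), with limma on log2(FPKM + 0.1) (0.0529) and with the replicate number as a block (0.77, adjusted p = 0.0532). In the fitted values HFD+eRapa stood between, at 0.60 ± 0.25 against ND+veh (adjusted p = 0.128) and -0.33 ± 0.26 against HFD+veh (adjusted p = 0.346), neither called. Its median of 554 CPM was the highest of any group. When only HFD+eRapa and ND+veh were fitted in edgeR, their difference was 0.61 and called (adjusted p = 0.0201).

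Slc6a13 (ENSMUSG00000030108.14, chromosome 6, 121300227 to 121337733, plus strand) encodes GAT2, the hepatic carrier of GABA that also takes up taurine. Its lowest, median and highest levels were 144, 289 and 311 CPM in ND+veh. They were 106, 196 and 259 CPM in HFD+veh and 159, 201 and 219 CPM in HFD+eRapa. Apart from ND+veh replicate 4 at 144 CPM, all ND+veh animals, from 267 CPM upward, were above all animals on the high-fat diet. Slc6a13 was 1.47-fold lower in HFD+veh (log2 fold change -0.55 ± 0.17, adjusted p = 0.0202) and 1.40-fold lower in HFD+eRapa (-0.49 ± 0.16, adjusted p = 0.04) than in ND+veh. The call of HFD+veh was lost with the immune score in the fit, at -0.39 (adjusted p = 0.147). It was also lost when only HFD+veh and ND+veh were fitted in edgeR (-0.565, adjusted p = 0.0668). Without ND+veh replicate 4 the values were -0.68 (adjusted p = 0.00353) and -0.60 (adjusted p = 0.00637). The call of HFD+eRapa was lost without a filter on low counts (-0.48, adjusted p = 0.0961), with the replicate number as a block (-0.43, adjusted p = 0.0841) and on leaving out any other ND+veh replicate, or HFD+eRapa replicate 1, 2, 4, 5, 7 or 9, with log2 fold changes from -0.51 to -0.45 and adjusted p from 0.0507 to 0.0738. The high-fat groups differed by 0.07 ± 0.16 (adjusted p = 0.776).

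Other plasma membrane amino acid transporters, 27 genes of which 16 were tested, included several partners of Slc3a2 and paralogues of the members. In HFD+veh against ND+veh 5 were higher and 2 lower, in HFD+eRapa against HFD+veh 2 were higher and 11 lower, and in HFD+eRapa against ND+veh 4 were lower. These 7, 13 and 4 of 16 stand beside 25.9%, 32.0% and 13.5% of all genes called in the same comparisons. The glutamine carrier Slc38a1 was higher in HFD+veh than ND+veh by 3.02 ± 0.85 on the log2 scale and lower in HFD+eRapa than HFD+veh (-3.01 ± 0.82), with mean levels of 1.11, 9.10 and 1.12 CPM in ND+veh, HFD+veh and HFD+eRapa. Slc7a8, a second light chain that pairs with Slc3a2, had means of 5.29, 26.1 and 3.74 CPM, with log2 fold changes of 2.30 ± 0.78 and -2.80 ± 0.76, and Slc43a2, a paralogue of Slc43a1, rose by 1.75 ± 0.52 in HFD+veh. Slc16a10, which passes aromatic amino acids, took the other course, at -1.23 ± 0.22 in HFD+veh against ND+veh and 0.61 ± 0.21 in HFD+eRapa against HFD+veh, and so did the glycine carrier Slc6a9 at -0.82 ± 0.23 and 0.58 ± 0.22. In HFD+eRapa against ND+veh the taurine carrier Slc6a6 was lower without overlap (-1.02 ± 0.14, 65.2 ± 9.53 against 133 ± 38.3 CPM, SD), and Slc7a7, which also pairs with Slc3a2, and the creatine carrier Slc6a8 were lower too (-1.59 ± 0.49 and -0.89 ± 0.25). The 11 genes lower in HFD+eRapa than HFD+veh moved the same way as the macrophage, endothelial and stellate cell markers. With the immune score in the fit 2 of 16, in place of 13, were called in that comparison.

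Among other close relatives of the members, the arginine carrier Slc7a1 averaged 0.953, 2.02 and 0.365 CPM in ND+veh, HFD+veh and HFD+eRapa and was lower in HFD+eRapa than HFD+veh (-2.44 ± 0.71, adjusted p = 0.011). The cystine exchanger Slc7a11, another partner of Slc3a2, averaged 1.09, 1.65 and 0.180 CPM and was lower in the same comparison (-3.14 ± 1.17, adjusted p = 0.043). Slc1a5, the paralogue of Slc1a4 that carries glutamine, averaged 1.61, 2.80 and 0.673 CPM (-2.04 ± 0.56, adjusted p = 0.00796). Slc1a2, a glutamate carrier of hepatocytes around the central vein, averaged 70.1 ± 44.8, 40.9 ± 60.4 and 77.5 ± 24.3 CPM (SD) and was called in none. Slc1a4 and Slc1a5 thus differed in opposite directions between HFD+eRapa and HFD+veh.

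Among 15 lysosomal and mitochondrial carriers, of which 13 were tested, 1 was higher and 1 lower in each comparison with HFD+veh, and 2 were higher in HFD+eRapa than ND+veh. The 2 of 13 called each time stand beside 25.9% of all genes in HFD+veh against ND+veh. In HFD+eRapa the share of all genes called was 32.0% against HFD+veh and 13.5% against ND+veh. The aspartate and glutamate carrier Slc25a12 was 0.61 ± 0.11 higher in HFD+veh than ND+veh without overlap, and lower in HFD+eRapa than HFD+veh (-0.40 ± 0.11). The liver form of that carrier, Slc25a13, and the ornithine carrier Slc25a15, both of the urea cycle, were higher in HFD+eRapa than ND+veh without overlap, by 0.50 ± 0.15 and 0.57 ± 0.17. Slc25a13 also exceeded HFD+veh, by 0.59 ± 0.15, and Slc25a38, a glycine carrier, was lower in HFD+veh than ND+veh (-0.54 ± 0.20).

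Of 28 genes of amino acid sensing upstream of mTORC1, 27 were tested. HFD+veh against ND+veh gave 3 higher and 3 lower, HFD+eRapa against HFD+veh 4 lower, and HFD+eRapa against ND+veh 1 lower. These 6, 4 and 1 of 27 stand beside 25.9%, 32.0% and 13.5% of all genes called in the same comparisons. Sesn1, a sestrin, was 0.87 ± 0.21 higher in HFD+veh than ND+veh and lower in HFD+eRapa than HFD+veh (-0.83 ± 0.20). The Ragulator subunits Lamtor3 and Lamtor5 were each 0.54 higher in HFD+veh than ND+veh (SE 0.17 and 0.16). Itfg2, of the KICSTOR complex, and the GATOR1 subunit Depdc5 were lower there (log2 fold changes -0.53 ± 0.17 and -0.38 ± 0.13). The Rag GTPase Rragd fell by 2.15 ± 0.64 in HFD+eRapa against HFD+veh, and the arginine sensor Castor1 was lower in HFD+eRapa than in both HFD+veh (-0.72 ± 0.26) and ND+veh (-0.79 ± 0.25), at means of 0.942, 1.56 and 1.63 CPM. With the immune score in the edgeR fit 0 of 27 were called in either comparison with HFD+veh, where 5 and 4 had an unadjusted p under 0.05 and DESeq2 without the score called 6 and 5.

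The ATF4 amino acid response, with Slc7a5, Slc3a2, Slc38a2 and Slc1a4 as known targets among the 10 and 19 further genes, was tested in 17 of the latter. In HFD+veh against ND+veh 1 was higher and 8 lower, in HFD+eRapa against HFD+veh 2 were higher and 4 lower, and in HFD+eRapa against ND+veh 1 was higher and 8 lower, with medians of -0.61, 0.16 and -0.66. These 9, 6 and 9 of 17 stand beside 25.9%, 32.0% and 13.5% of all genes called in the same comparisons. The hormone gene Fgf21 was lower than in ND+veh in both HFD+veh (-2.50 ± 0.47) and HFD+eRapa (-2.35 ± 0.42), and the pseudokinase gene Trib3 (-1.99 ± 0.45) and asparagine synthetase Asns (-1.67 ± 0.62) were lower in HFD+veh. The serine synthesis gene Psat1 and the stress gene Nupr1 were lower in HFD+eRapa than in both other groups, with log2 fold changes of -2.07 ± 0.59 and -3.15 ± 0.59 against ND+veh and -2.0 ± 0.60 and -2.05 ± 0.59 against HFD+veh. Aldh18a1 of proline synthesis was lower than in HFD+veh (-2.25 ± 0.68). Cebpb and Shmt2 were higher in HFD+eRapa than HFD+veh by 0.97 ± 0.25 and 0.66 ± 0.20, and the aminotransferase gene Gpt2 was higher than in ND+veh in HFD+veh (0.55 ± 0.18) and in HFD+eRapa (0.88 ± 0.18). Of the targets among the 10 transporters, Slc7a5 and Slc3a2 were lower in HFD+eRapa and Slc1a4 was higher in HFD+eRapa than HFD+veh, while Slc38a2 was not called.

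**Figure D5:**
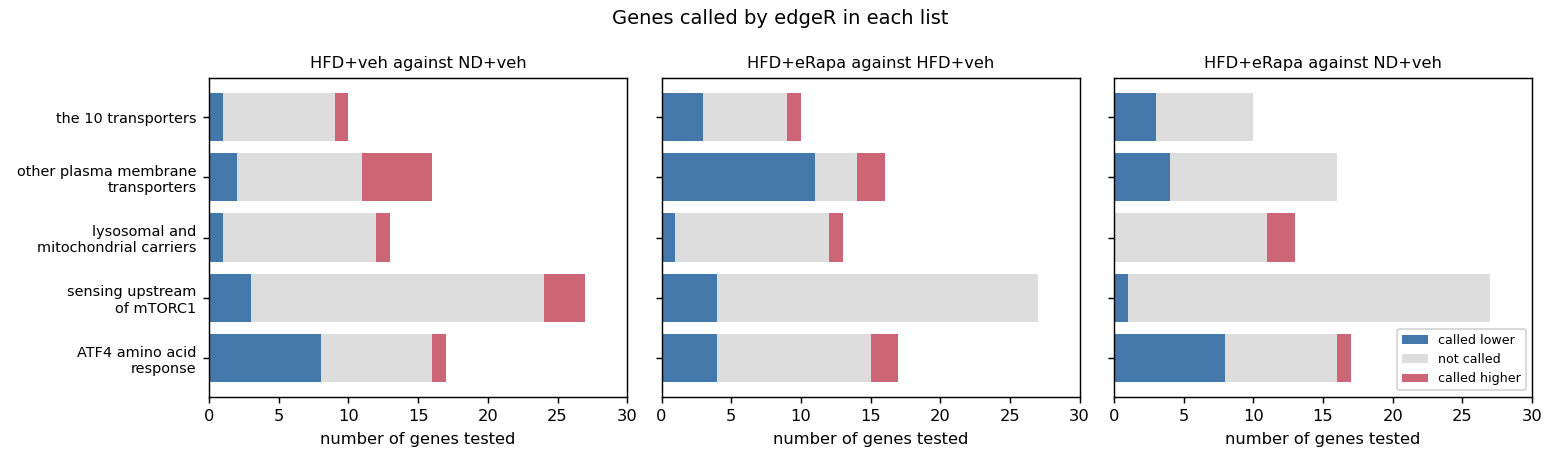
Number of genes tested (x axis) in each of 5 gene lists, split into those called lower, not called and called higher by edgeR in the 3 comparisons. The other plasma membrane transporters have 11 of 16 lower in HFD+eRapa against HFD+veh, and the ATF4 list has 8 of 17 lower in both comparisons with ND+veh.

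For each transporter called in at least 1 comparison, the genes whose log2 CPM followed it most closely over the 24 libraries were listed among 7805 or 7806 genes with a mean log2 CPM of at least 3. These correlations include the differences between groups and are a description only. Slc3a2 was followed by the adhesion gene Icam1 (r = 0.902) and by Bin1 (0.882), and Slc7a5 by Rnf145 (0.857). Slc6a13 was followed by the cytokine receptor genes Il11ra1 (0.933) and Sigirr (0.924), the closest of all. Slc7a2 was nearest to Man2a1 (0.876) and to Got1 (0.812), the cytosolic aspartate aminotransferase. Slc38a9 was nearest to Bclaf1 (0.868) and Tmem87a (0.864), and Slc1a4 to the dicarboxylate carrier gene Slc13a3 (0.811) and Igsf11 (0.800).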

How the data were processed

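RNA-seq libraries of hepatocytes from 24 mice were analysed from the tables the authors deposited. Per the study's methods, reads were aligned with STAR to mm10 (Gencode vM23) and counted per gene with HTSeq 0.11.2, which gave the deposited raw counts. The strand setting of the counting was not given in the sources used here, so reads of a gene and of an overlapping antisense gene may not be separable. The authors' FPKM values came from Cufflinks and were used for levels between genes and for an alternative test with limma. Coordinates are from the Gencode M21 annotation of GRCm38.

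Counts were tested with edgeR 4.0.16 in R 4.3.3 (filterByExpr, TMM, robust quasi-likelihood F-test) on all 24 libraries in 3 groups, with Benjamini-Hochberg adjustment over 13847 genes and a threshold of 0.05. SE were derived as |log2 fold change|/√F. Log2 CPM used a prior count of 2, and CPM are TMM-scaled. Depth was 17739252 to 25945134 counts per library, which allows a member at 8 counts only a coarse value. Alternatives were DESeq2 1.42.0, its size factors, other filters (none, or at least 10 counts in every library), only the groups compared, a replicate block, marker scores as covariates, limma 3.58.1 on log2(FPKM + 1) and log2(FPKM + 0.1), and leaving out each library. The scripts were tested on simulated data. The scores average the scaled log2 CPM of 15 immune and 24 other marker genes and differ between the groups, so such a fit removes part of the group difference itself. No 2 libraries of a group agreed within sampling noise.

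The members and lists were chosen with earlier results of these data known. Besides the 10 members, the genes named were Slc7a1, Slc7a11, Slc1a2 and Slc1a5, per list and comparison up to 3 called genes that rose most and 3 that fell most, and the 2 genes nearest to each called member. Some genes that this rule names are not reported here. Gene lists came from general knowledge of the pathways and cell types. Promoter windows are from RefSeq (GRCm38.p6), from 250 bases before to at most 50 after the start.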

Additional observations from a re-analysis of the deposited data

Results flagged for a closer look

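In 2 of the 30 combinations of transporter and group 1 animal lay far from the rest, beside 1.5 expected by chance at 1 in 20. Both concern ND+veh replicate 4. Its Slc38a4 level was 9.17 on the log2 CPM scale (575 CPM), below the other 7 ND+veh animals at 10.01 to 10.26 (1031 to 1225 CPM). Its Slc6a13 level was 7.18 (144 CPM), below the others at 8.06 to 8.28 (267 to 311 CPM). Without this animal, Slc6a13 was lower by -0.68 on the log2 scale in HFD+veh and by -0.60 in HFD+eRapa than in ND+veh, both called by edgeR.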

How the results depend on the processing

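Slc7a5 and Slc3a2 kept their lower level in HFD+eRapa than in ND+veh, called, in every fit that gave a value. Slc7a5 was not tested under the filter of at least 10 counts in every library and had no value in the FPKM fits. DESeq2 and its size factors kept all 30 member results on their side of the threshold. With 1 library left out, members called ranged from 2 to 3 in HFD+veh against ND+veh, from 3 to 4 in HFD+eRapa against HFD+veh and from 2 to 3 in HFD+eRapa against ND+veh. Fitting only the groups compared gave 0, 4 and 5 members in these comparisons, with Slc7a2 and Slc38a4 added in the last. The 0 had 3 at an unadjusted p under 0.05 in edgeR and 2 called by DESeq2 on all groups. In HFD+veh against ND+veh the count was also 5 with the non-immune score and 1 with limma on log2(FPKM + 0.1). In HFD+eRapa against HFD+veh it was 2 under the filter of 10 counts and under limma with either pseudocount, Slc3a2 and Slc38a9 each time. Under either marker score it was 2 as well, but all 4 calls were lost and Slc38a3 and Slc43a1 were called instead. The causes were not tested, beyond the missing Slc7a5.

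In the 3 comparisons, 5 of 7, 2 of 7 and 2 of 8 same-numbered pairs had deviations correlated above 0.1, with mean r of 0.32, -0.24 and -0.20. Same-numbered pairs were not compared with differently numbered ones, so a pairing by replicate number was not tested. With the replicate block 1 member, Slc6a13, was called in HFD+veh against ND+veh, where Slc7a2 was lost, and Slc6a13 was lost in HFD+eRapa against ND+veh. The block also moved the other plasma membrane transporters to 4, 8 and 2 called, the lysosomal and mitochondrial carriers to 1 in HFD+veh against ND+veh and the ATF4 list to 3 in HFD+eRapa against HFD+veh. It turned the sign of Slc38a3 in HFD+eRapa against HFD+veh to 0.15 and of Slc43a1 in HFD+eRapa against ND+veh to 0.26.

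Signs turned only for differences that were not called in the main fit. Some of these were called in other edgeR fits. Slc38a3 in HFD+eRapa against HFD+veh was called at -0.73 with the immune score (adjusted p = 0.0249) and -0.85 with the non-immune score (adjusted p = 0.00898). Slc43a1 in HFD+eRapa against ND+veh was called at -0.85 with the non-immune score (adjusted p = 0.0382). For HFD+eRapa against HFD+veh, Slc38a2 became 0.022 without a filter, 0.057 and 0.020 with the immune and non-immune score, and 0.060 without ND+veh replicate 4 and HFD+veh replicate 6, an alternative chosen after seeing the data. In that comparison Slc38a3 became 0.12 under both limma fits, Slc38a4 became -0.045, -0.14, -0.0026 and -0.0025 with the 2 scores and the 2 limma fits, and Slc6a13 became -0.13 and -0.21 with the scores and -0.0064 without the 2 animals. For HFD+eRapa against ND+veh, Slc38a3 became -0.011 with the non-immune score and Slc43a1 0.040 with limma on log2(FPKM + 0.1). With 1 library left out, Slc38a2 ranged from -0.082 to 0.046, Slc38a3 from -0.26 to 0.27, Slc38a4 from -0.022 to 0.19 and Slc6a13 from -0.019 to 0.17 in HFD+eRapa against HFD+veh, and Slc43a1 from -0.23 to 0.28 in HFD+eRapa against ND+veh.

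With the immune score, called genes numbered 3 and 2 among the other plasma membrane transporters in HFD+veh against ND+veh and HFD+eRapa against HFD+veh, 1, 0 and 5 among the lysosomal and mitochondrial carriers, 0, 0 and 4 in the sensing list and 1 in the ATF4 list in HFD+eRapa against HFD+veh. Without the 2 animals together they were 4, 8 and 2 for the other plasma membrane transporters, 1 for the lysosomal and mitochondrial carriers in both comparisons with ND+veh, and 2 and 3 for the sensing list in those. DESeq2 called 3 sensing genes in HFD+eRapa against ND+veh.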
